A study of Caenorhabditis elegans with 18 samples.

Results

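The comparison described here sets 5 arrays of worms exposed to hydrogen peroxide (H2O2) against 5 arrays of untreated control worms, 10 of the 18 arrays of the series. All worms were wild-type Caenorhabditis elegans of the N2 strain, fed on E. coli OP50, and total RNA was hybridised to Affymetrix 3' expression arrays. At the fourth larval stage (L4) the H2O2 group had an exposure of 2 h to 0.3 mM H2O2, and the control group developed and aged without treatment. The other 2 groups, TRF+H2O2+TRF (n = 4) and TRF (n = 4), also received a tocotrienol-rich fraction (TRF), a vitamin E preparation. The TRF+H2O2+TRF group had TRF before and after an H2O2 exposure, up to day 3 of adulthood, and the TRF group had it for life. The age at which control and H2O2 worms were collected, and how long after exposure, is not in the labels. Nothing there says whether replicates were separate cultures, so each p-value reflects the spread between these arrays, which may be technical. The 10 arrays were chosen by their titles, and all 22548 probe sets other than Affymetrix controls were compared.

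Hydrogen peroxide is a diffusible oxidant that cells both make and destroy. In C. elegans it is broken down by catalases and peroxiredoxins, and high doses are known to engage the transcription factors SKN-1, which drives detoxification and glutathione synthesis genes, DAF-16, which acts downstream of insulin signalling, and HSF-1, which drives heat shock chaperones. The body wall muscle that moves the worm consists of obliquely striated sarcomeres, in which myosin thick filaments slide past actin thin filaments regulated by troponin and tropomyosin, and which are anchored to the cuticle through integrin-based attachments.

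Signals were MAS5 intensities that the authors had scaled, to a trimmed mean of about 500.1 on each array. The median signal lay between 79.5 and 112.2 on the H2O2 arrays and between 81.5 and 98.8 on the control arrays. The ratio of 3' to 5' ubiquitin signal, a sign of RNA and labelling quality, ran from 8.45 to 14.8 in H2O2 and from 9.61 to 15.5 in control (exact two-sided permutation p = 0.897, n = 5 each). Defining markers of body wall muscle (unc-54, myo-3), pharynx (myo-2), intestine (elt-2, ges-1), neurons (rab-3, unc-119), sperm (gsp-3) and oocytes (oma-1, cbd-1) were looked for on these arrays. All reached the 40th percentile of mean signal, a level of 46.6, except gsp-3. The arrays of equal replicate number resembled each other. Over the 13529 probe sets at or above the 40th percentile of mean signal, the deviations of an H2O2 array from its group mean correlated with those of the control array of the same number at 0.276 to 0.688, and that control array was the best match for 5 of 5 H2O2 arrays. Results are therefore given for the unpaired comparison and for the comparison within the 5 numbered pairs.

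No probe set passed the threshold between H2O2 and control. In limma, 0 of 22548 probe sets had an adjusted p under 0.05 in the unpaired fit (smallest 0.793) and 0 in the paired fit (smallest 0.186), 0.0% in each direction. At an unadjusted p under 0.05 the unpaired fit held 474 probe sets with a higher mean in H2O2 (2.1%) and 236 with a lower mean (1.05%), 3.15% in all. The paired fit held 1050 higher (4.66%) and 660 lower (2.93%), 7.58% in all. The 5 H2O2 signals lay above all 5 control signals in 103 probe sets (0.457%) and below them in 44 (0.195%), 0.652% in all. Over the probe sets at or above the 40th percentile, the median SD within groups was 0.319 on the log2 scale, and it was 0.211 once the difference between numbered pairs was taken out. After each array was centred on its median, the unpaired split was 350 higher and 352 lower, because this centring moved the median of all log2 fold changes to -0.05, against 0.022 as deposited. The split between higher and lower probe sets thus moved with the scaling.

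**Figure D1:**
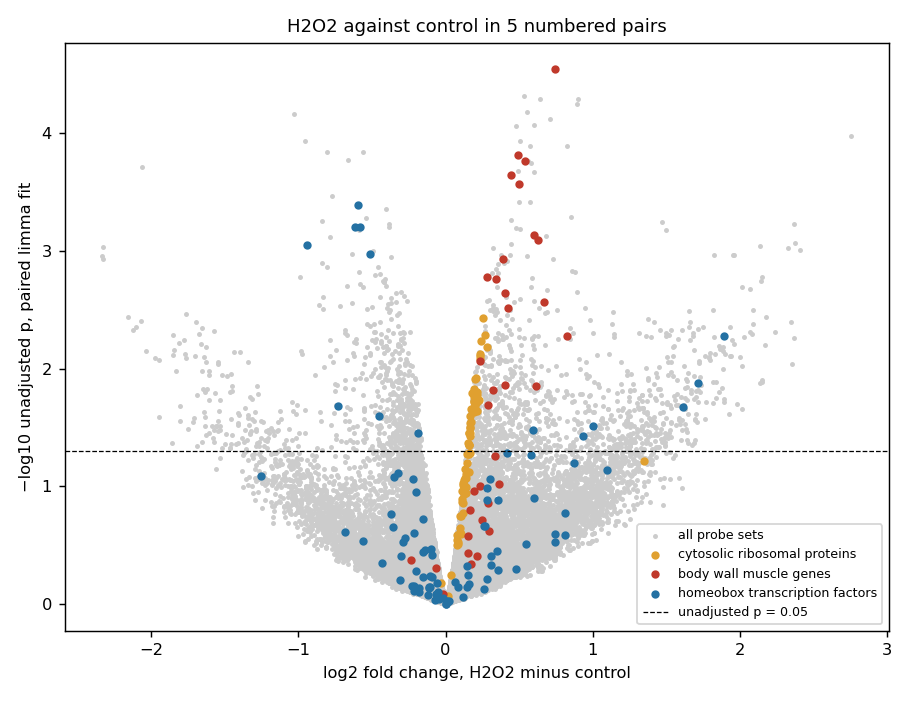
Each point is a probe set, with the log2 fold change (H2O2 minus control) on the x axis and the −log10 unadjusted p of limma's paired fit on the y axis, and coloured points are the members of 3 gene lists, each gene by its brightest probe set. Body wall muscle genes lie on the right with mup-2 at the top, ribosomal protein genes form a narrow arc just right of 0, and 5 homeobox genes stand out on the left with p-values up to 0.0011.

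Body wall muscle genes had the highest median of the 44 gene lists examined. Of 35 measured genes of the body wall sarcomere and its attachments, 31 had a higher mean in H2O2 (53.6% of all genes did), the median log2 fold change was 0.32 (against 0.02 over 17118 genes), and 19 had an unadjusted paired p under 0.05 with a higher mean, 54.3% against 4.67% of all genes. None had such a p with a lower mean (3.02% of all genes), and 0 passed after adjustment over all probe sets. In the unpaired fit 10 had an unadjusted p under 0.05 with a higher mean and 0 with a lower mean, where 2.07% and 1.06% of all genes did. All 5 pairs were higher in H2O2 in 17 of the 35 and lower in 0, where 5.51% and 3.53% of all genes were. The median over the 35 genes was above 0 in each pair, at 0.40, 0.16, 0.19, 0.33 and 0.66 for numbers 1 to 5. With 1 pair left out at a time, 15 to 22 of the 35 had an unadjusted paired p under 0.05 with a higher mean, the lowest without number 5. The genes of a list were measured on the same 5 pairs of arrays, so counts of its members are not of independent observations. The lists were chosen with earlier results of these data known. Signals came from whole animals, so more muscle relative to other tissues and more muscle RNA per cell cannot be told apart.

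The gene with the smallest paired p of all 22548 probe sets was mup-2, which encodes a muscle troponin T. It had signals of 3739.6, 1678, 1811, 2889.5 and 2841 in H2O2 arrays 1 to 5, against 2096, 1259, 1041, 2011 and 1267 in control arrays 1 to 5. Every pair was higher in H2O2, while the groups overlapped, with control arrays 1 and 4 above H2O2 arrays 2 and 3. Its mean was 2592 ± 853 in H2O2 and 1535 ± 483 in control (SD, n = 5 each), a log2 fold change of 0.75 ± 0.106 (SE, paired) with an unadjusted paired p of 2.89e-05 and an adjusted paired p of 0.186 in limma. In the unpaired fit the same difference had an SE of 0.244 and an adjusted p of 1.

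Most of the other troponin genes on the list were also higher in H2O2 in 5 of 5 pairs. The troponin T gene tnt-2 had 3607, 2980.1, 2627, 3321 and 3480.3 in H2O2 and 2796, 1874, 1776, 2826 and 1925 in control, in order of number. The troponin I gene unc-27 had 5267, 4624, 3594, 4860.1 and 4662 in H2O2 and 4084, 3190.1, 2679.6, 3912 and 2626 in control. In both, all 5 pairs were higher in H2O2 and only the brightest control arrays, numbers 1 and 4, reached the H2O2 range. Their log2 fold changes were 0.54 ± 0.0947 (SE, paired) and 0.49 ± 0.0856 (SE, paired), each with an adjusted paired p of 0.186. The calcium-binding troponin C gene pat-10 had a log2 fold change of 0.34, and the troponin I genes tni-1 and tni-3 had 0.62 and 0.40. Of these, tni-1 was higher in 4 of 5 pairs. The troponin T gene tnt-3 varied more, with 0.29 and pair differences of 1.05, -0.43, -0.20, 0.24 and 0.80. It was higher in 3 of 5 pairs, with an unadjusted paired p of 0.239 in limma. Among the other thin filament genes, unc-87, an actin-bundling protein, had 0.60, lev-11 (tropomyosin) 0.29 and act-4 (actin) 0.23. The actin-severing cofilin gene unc-60 stood apart, with -0.015 and signals of 5398 to 7835 in H2O2 and 5755 to 7323 in control. Together, 10 of 11 thin filament genes had a higher mean, with a median of 0.40, and 9 had an unadjusted paired p under 0.05.

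Thick filament genes were higher in 6 of 6 (median 0.38), and 5 had an unadjusted paired p under 0.05. The paramyosin gene unc-15, which forms the filament core, had 5593, 4195, 4896, 5295 and 4657 in H2O2 and 4678, 3129.8, 3233, 4159 and 2530.5 in control, with every H2O2 array above its numbered control and a log2 fold change of 0.50 ± 0.0934 (SE, paired). The light chain genes mlc-3, mlc-1 and mlc-2 had 0.45, 0.39 and 0.28. The heavy chain genes varied more between pairs. The major heavy chain gene unc-54 had pair differences of 0.56, 0.16, 0.28, -0.06 and 0.67, and myo-3 had 0.45, -0.14, -0.079, 0.32 and 1.24, so that 1 and 2 of the 5 pairs were lower. Of the giant sarcomere proteins, the titin gene ttn-1 (0.67) and the obscurin gene unc-89 (0.63) were higher in 5 of 5 pairs, while the twitchin gene unc-22 had -0.23 and signals of 36.5 to 182 in H2O2 and 81.5 to 134 in control. Further probe sets had the opposite sign in 2 of 5 cases for ttn-1, 1 of 4 for unc-89, 2 of 6 for lev-11, 2 of 4 for unc-60, 1 of 2 for unc-52 and 1 of 1 for unc-22 and pat-4.

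Attachment genes had a lower median. The 15 genes of dense bodies, M-lines and the underlying matrix had a median of 0.21, and 3 had an unadjusted paired p under 0.05: dim-1 (0.43), alp-1 (0.40) and the LIM-domain gene unc-95 (0.83). In pair 3 the median of these 15 genes was -0.11, where that of the thin filament genes was 0.42. The integrin genes pat-2 and pat-3 had 0.21 and 0.19. The integrin-linked kinase gene pat-4 (-0.04) and the parvin gene pat-6 (-0.062) had lower means, although pat-4 was above 0 after quantile normalization. The other members were unc-52 (perlecan, 0.34), unc-98 (0.29), atn-1 (alpha-actinin, 0.25), zyx-1 (zyxin, 0.23), deb-1 (vinculin, 0.17), unc-97 (0.17), uig-1 (0.15) and unc-112 (kindlin, 0.15). The remaining thin filament gene, tnt-3, had 0.29. These 4 role groups were set after the values had been seen, and the difference between them was not tested.

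**Figure D2:**
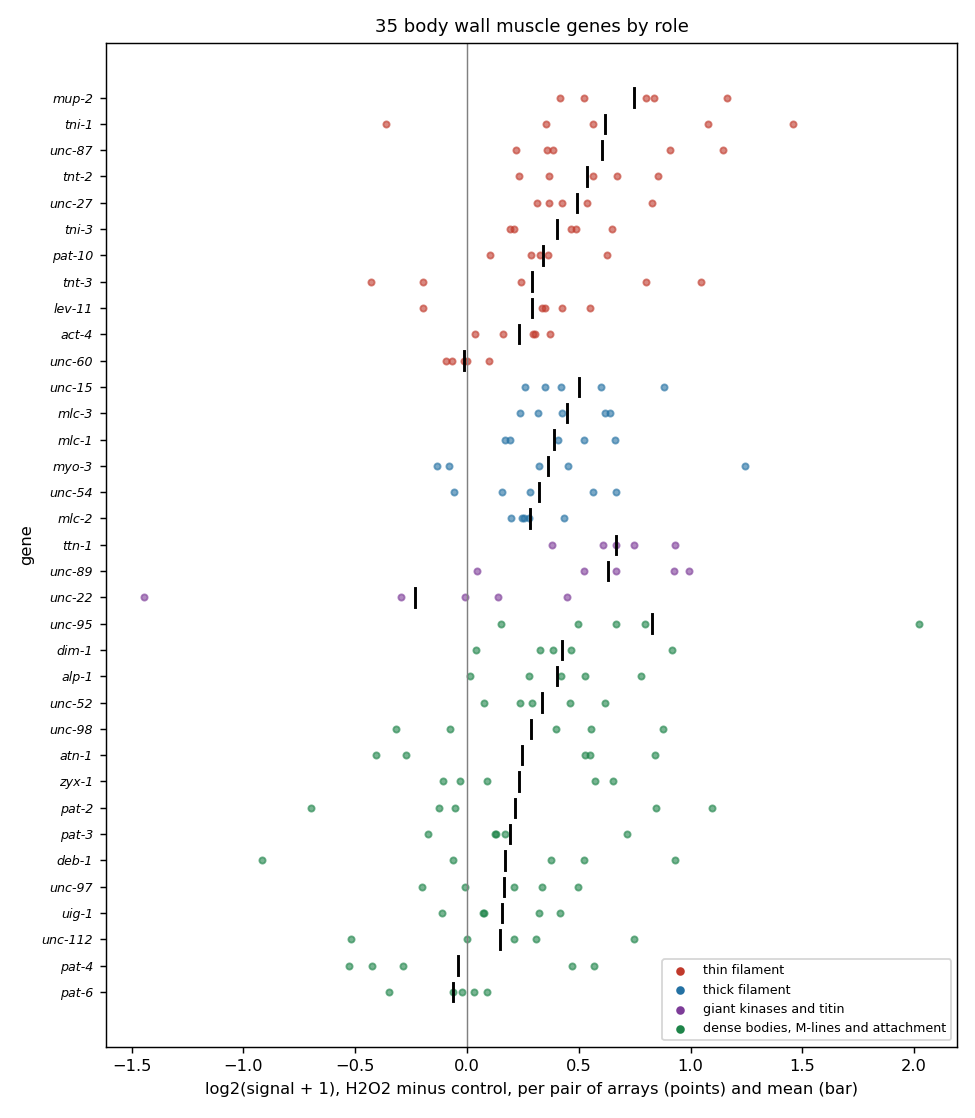
Each row is 1 of 35 body wall muscle genes, ordered by role and then by mean, and points are the differences in log2(signal + 1), H2O2 minus control, in the 5 numbered pairs, with a bar at the mean. Points of thin and thick filament genes lie mostly right of 0, with mup-2 at 0.75 and unc-15 at 0.50, while attachment genes such as pat-4 (-0.04) and pat-6 (-0.062) straddle 0.

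Other genes with small paired p and a higher mean in all 5 pairs included actin-binding proteins outside the muscle list. The calponin-like gene clik-1 had 7404, 4543, 4809, 5809 and 5328 in H2O2 and 4559.9, 3469, 3212, 4732 and 3021 in control, and the calponin gene cpn-3 had signals of 4113 to 6335 in H2O2 and 2677 to 4626 in control. Their log2 fold changes were 0.56 ± 0.0872 (SE, paired) and 0.51 ± 0.0849 (SE, paired), and both had an adjusted paired p of 0.186. The genes C46G7.2 (0.53), T23E7.2 (0.71) and C53B7.2 (0.58), for which no role is given here, had the same adjusted paired p. The mean of array 1 was at the top of the muscle list in both groups (10.53 in H2O2 and 10.13 in control, mean log2 signal), and array 5 was lowest in control (9.38).

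Some genes separated the groups without any overlap, and of these C29F5.1 and oig-2 were also among the genes picked by smallest paired p. Of 17118 genes, 76 were higher in H2O2 without overlap (0.444%) and 32 were lower (0.187%). With 5 arrays against 5, random group labels also leave some genes without overlap, so these shares alone do not show an effect. Whether these shares exceed those under random group labels was not tested. The 8 described here were picked from the higher ones by their unpaired p. C29F5.1, a gene with no role given here, had 1467, 1203, 1471, 1547 and 1619 in H2O2 and 889, 776, 723, 1054 and 547 in control. Its lowest H2O2 signal lay above its highest control signal, and its log2 fold change was 0.90 ± 0.164 (SE, unpaired), with an adjusted p of 0.793 unpaired and 0.186 paired. The gene oig-2, which encodes a small immunoglobulin-domain protein, had 1353, 1516, 1254, 1730.3 and 1685 in H2O2 and 1078, 953, 805, 1137 and 853 in control, again with no overlap, and a log2 fold change of 0.64 ± 0.137 (SE, unpaired). The calexcitin gene cex-1, a neuronal calcium sensor, had 1090.3, 735, 899.6, 1294 and 1022 in H2O2 and 583, 647, 620.3, 649 and 325 in control, where control array 5 was far below the other 4. The neuropeptide gene flp-18 had 937, 861, 1019, 1012 and 890.5 in H2O2 and 539.6, 671, 799.8, 824 and 595 in control, with the lowest H2O2 signal, 861, just above the highest control signal, 824, and a log2 fold change of 0.48. Without a role given here, F42A10.7 (0.86), Y45F10B.13 (0.73), C17H12.10 (1.5) and T23F6.2 (1.14) also did not overlap. Because these 8 genes were chosen for signals without overlap, each was bound to be higher in H2O2 in 5 of 5 pairs. Their adjusted paired p ran from 0.186 to 0.499.

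Genes with lower means in H2O2 included homeobox genes and genes of SWEET sugar transporters. Of 88 measured homeobox genes, which encode DNA-binding regulators of cell identity, 8 had an unadjusted paired p under 0.05 with a lower mean (9.09%, against 3.02% of all genes) and 6 with a higher mean (6.82%, against 4.67%). With 1 pair left out at a time these counts ran from 7 to 11 lower and from 3 to 6 higher, with 3 higher without pair 2 or pair 5. Over all 88, 41 had a higher mean and the median log2 fold change was -0.054. The signals did not overlap in 3 of the 88, all lower in H2O2 (0.187% of all genes were lower without overlap, and 0.444% higher). They were mls-2, tab-1 and ceh-43. The HMX-family gene mls-2 had 246, 292, 248, 198 and 240.0 in H2O2 and 376, 424, 315, 387 and 365 in control, with both groups tightly spread and a log2 fold change of -0.61 ± 0.156 (SE, unpaired). For tab-1 the signals were 101, 105, 119.8, 87.8 and 109 in H2O2 and 180.1, 359, 171, 152 and 194 in control, where control array 2 was far above the others. The Distal-less family gene ceh-43 had 809, 1078, 1005, 545 and 772 in H2O2 and 1155, 1541, 1149.9, 1146 and 1237 in control and a log2 fold change of -0.59 ± 0.175 (SE, unpaired). The Six-family gene ceh-32 (-0.58) and ceh-58 (-0.52) were lower in 5 of 5 pairs with overlapping groups. Of the 6 homeobox genes with an unadjusted paired p under 0.05 and a higher mean, 4 lay below the 40th percentile of signal. Among these, ceh-51 averaged 25.4 in H2O2 and 4.71 in control.

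Of the SWEET genes, swt-6 had 603, 1379, 456, 725 and 1099 in H2O2 and 2249, 2804, 758, 1375 and 1623 in control. Every pair was lower in H2O2, although the level differed widely between numbers, and the log2 fold change was -1.03 ± 0.162 (SE, paired) with an adjusted paired p of 0.186. For swt-3 the signals were 102, 139, 118, 111.97 and 148 in H2O2 and 212, 190.2, 206, 174 and 353 in control, with no overlap. In the same list of 17 aquaporin and sugar transporter genes, the aquaglyceroporin gene aqp-7 went the other way, with 0.44 ± 0.0901 (SE, paired) and a higher signal in 5 of 5 pairs. The TGF-beta family ligand gene unc-129, which acts in axon guidance, had 578, 427, 375, 331 and 459 in H2O2 and 718, 897, 593, 528 and 702 in control and a log2 fold change of -0.67 ± 0.117 (SE, paired). The Wnt receptor gene cfz-2 had -0.39. Lower in 5 of 5 pairs were also the fatty acid and retinol binding protein gene far-3 (-0.81), the cuticlin-like gene cutl-16 (-0.77), the F-box gene fbxb-66 (-0.56), F13C5.2 (-0.54) and F23F12.12 (-0.38). Without overlap were baz-2 (-0.64), F26G1.2 (-0.54), H20E11.3 (-0.67) and soap-1 (-0.44), and baz-2 had 1 more probe set, of opposite sign. Adjusted paired p over these lower genes ran from 0.186 to 0.516.

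**Figure D3:**
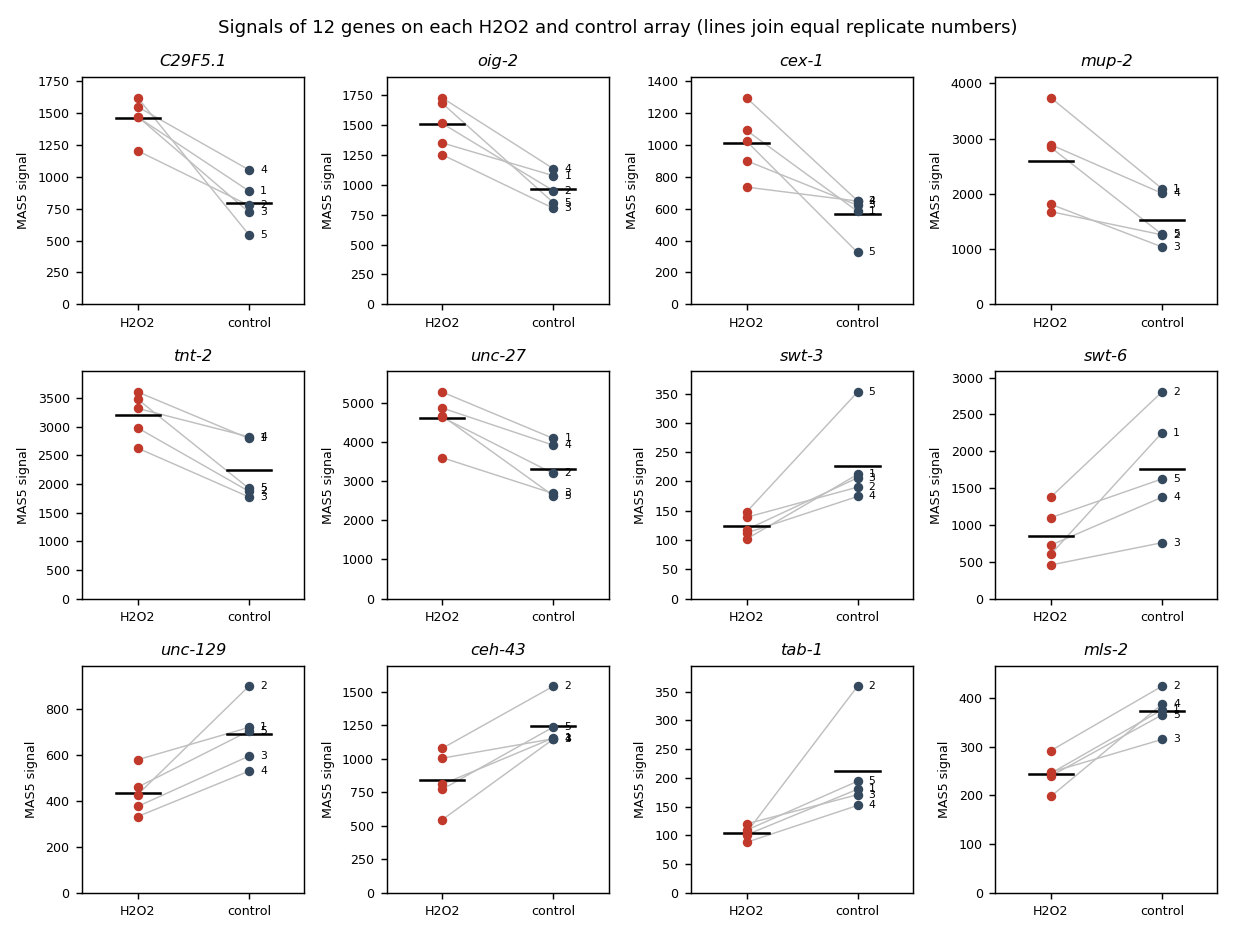
MAS5 signals (y axis, linear from 0) of 12 genes on the 5 H2O2 arrays (left, red) and the 5 control arrays (right, dark), with a bar at each mean and grey lines joining equal replicate numbers, which stand beside the control points. Lines fall to the right for the 6 genes with higher means in H2O2, such as C29F5.1, and climb for the 6 with lower means, such as swt-6, and in mup-2 and swt-6 all 5 lines slope one way while the groups overlap.

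Histone genes had the lowest median of the 44 lists as deposited. After quantile normalization the homeobox list was lower, at -0.095, against -0.091 for histones. Of 35 histone genes measured, 13 had a higher and 22 a lower mean (median -0.093). An unadjusted paired p under 0.05 was held by 6 with a lower mean (17.1%, against 3.02% of all genes) and by 0 with a higher mean. The lower count was 3 of 35 (8.57%) without pair 2, without pair 3 or without pair 5. The H1 linker histone genes hil-3 (-0.41 ± 0.0809, paired SE), his-24 (-0.21), hil-2 (-0.22) and hil-7 (-0.54) made up 4 of the 6, with his-41 (-0.28) and the H3.3 gene his-71 (-0.26). Of these, hil-7 was lower in only 3 of 5 pairs, with pair differences of 0.19, -1.09, -1.60, -0.38 and 0.17. For hil-3 the signals were 2718, 2860.5, 2939, 2976 and 2068 in H2O2 and 3345, 4552, 4149.9, 3583 and 2551 in control. The group median was below 0 in 4 of 5 pairs, and DNA replication genes had a median of -0.019 with 8 of 27 higher.

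None of the superoxide dismutase and catalase genes passed the threshold. Of the 6 superoxide dismutase and catalase genes with a probe set of their own, 5 had a higher mean (median 0.088) and 0 had an unadjusted paired p under 0.05. The mitochondrial superoxide dismutase gene sod-3, a reporter of DAF-16, had 285, 242, 260.2, 283 and 287 in H2O2 and 204, 265, 183, 332 and 232 in control. Control arrays 1, 3 and 5 lay below every H2O2 signal, while control arrays 2 and 4 reached the H2O2 range or above it. The log2 fold changes were 0.094 for sod-1, 0.039 for sod-2, 0.19 for sod-3, 0.082 for sod-4, 0.40 for sod-5 and -0.10 for the peroxisomal catalase gene ctl-2, and sod-2 was below 0 after median centring. The peroxiredoxin genes prdx-2 and prdx-3, which reduce peroxide directly, had 0.079 and 0.0043, both below 0 after quantile normalization, and the thioredoxin reductase gene trxr-1 had -0.21 with a lower signal in 5 of 5 pairs. Among 26 genes of peroxiredoxins, thioredoxins and glutathione peroxidases (median 0.0034), 2 had an unadjusted paired p under 0.05 with a higher mean. They were the glutathione peroxidase gene gpx-3, with 513, 177, 455, 402 and 262 in H2O2 and 297, 176, 259, 396 and 141 in control, and the methionine sulphoxide reductase gene msra-1 (0.33), and 2 of 26 is 7.69%, against 4.67% of all genes. The adjusted paired p of both was over 0.5.

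SKN-1 pathway genes had a median of 0.044 over 18 members, 10 of them higher. The glutathione S-transferase gene gst-4, a reporter of SKN-1, had 873, 1745, 563, 1099 and 1393 in H2O2 and 1043, 1729, 588, 1643 and 2084 in control, lower in 4 of 5 pairs, with a log2 fold change of -0.29 ± 0.107 (SE, paired). The gcs-1 gene, for the first enzyme of glutathione synthesis, had 0.10, and the nitrilase gene nit-1 0.26. Of 45 glutathione S-transferase genes 24 were higher, and gsto-3, of the omega class, had 979.9, 859, 936, 969 and 801 in H2O2 and 772, 774, 719.6, 719 and 642 in control with no overlap (0.32), while gst-29 had -0.83. The transcription factor genes skn-1, daf-16 and hsf-1 had -0.26, 0.078 and 0.078, and the dual oxidase gene bli-3, whose product makes H2O2, had -0.21. Among 28 genes of peroxide sensing and stress signalling, 1 had an unadjusted paired p under 0.05, the Hippo-type kinase gene cst-1 (-0.25), and lite-1, a light and peroxide receptor, had 0.35. The UDP-glucuronosyltransferases (31 of 64 higher) and cytochrome P450 genes (38 of 73 higher) had medians of -0.034 and 0.0069.

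The higher means of hsp-16.2, hsp-16.41 and hsp-70 in H2O2 rested on 1 array. The small heat shock gene hsp-16.2 had 1804, 1595, 1877, 5556 and 376 in H2O2 and 1383, 2410.2, 2165, 831 and 336 in control. H2O2 array 4 was over 2 times as bright as any other array, both arrays numbered 5 were the dimmest, and the H2O2 array was the dimmer of its pair in numbers 2 and 3. The genes hsp-16.41 and hsp-70 had the same arrays at the top and the bottom, with 1186, 1308, 1132, 4548 and 338 in H2O2 and 1089, 1988, 1243, 638 and 306 in control for hsp-16.41 and 905, 822, 1104, 4259 and 356 in H2O2 and 842, 1348, 1043, 479.9 and 282 in control for hsp-70. The log2 fold changes were 0.50 ± 0.369 (SE, paired), 0.47 ± 0.382 (SE, paired) and 0.59 ± 0.418 (SE, paired), and their unadjusted paired p were 0.207, 0.244 and 0.187. Without H2O2 array 4 the unpaired value of hsp-16.2 was 0.053, that of hsp-16.41 -0.0026 and that of hsp-70 0.085. The genes hsp-12.2 (0.33) and sip-1 (0.14) completed the leading members of the 10 small heat shock genes, of which 8 were higher. No probe set here names hsp-16.1, hsp-16.48, ctl-1 or ctl-3 alone.

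Chaperone lists of the endoplasmic reticulum and mitochondria had medians near that of all genes. The reticulum BiP gene hsp-4 had 0.19, the calreticulin gene crt-1 0.15 and the group -0.035 (median, 19 genes). The mitochondrial hsp-6 had 0.069 (below 0 after median centring) and hsp-60 had 0.30. The mitochondrial protease gene clpp-1 did not overlap, with 1072, 1526, 1277, 1184 and 1052 in H2O2 and 985, 977, 952, 943 and 948 in control and a log2 fold change of 0.33 ± 0.122 (SE, unpaired). Of the hypoxia genes, nhr-57, a target of HIF-1, was higher in 5 of 5 pairs (0.45 ± 0.121, paired SE), and nhr-49 had -0.17. Of the metal response genes, the metallothionein gene mtl-1 had -0.48 and the ferritin gene ftn-2 0.22. DNA repair and cell death genes were higher in 12 of 38 (median -0.069), with brc-2, a recombination gene, at -0.26 and apn-1, a nuclease of base excision repair, at -0.28. Each of these genes had an adjusted paired p over 0.5.

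**Figure D4:**
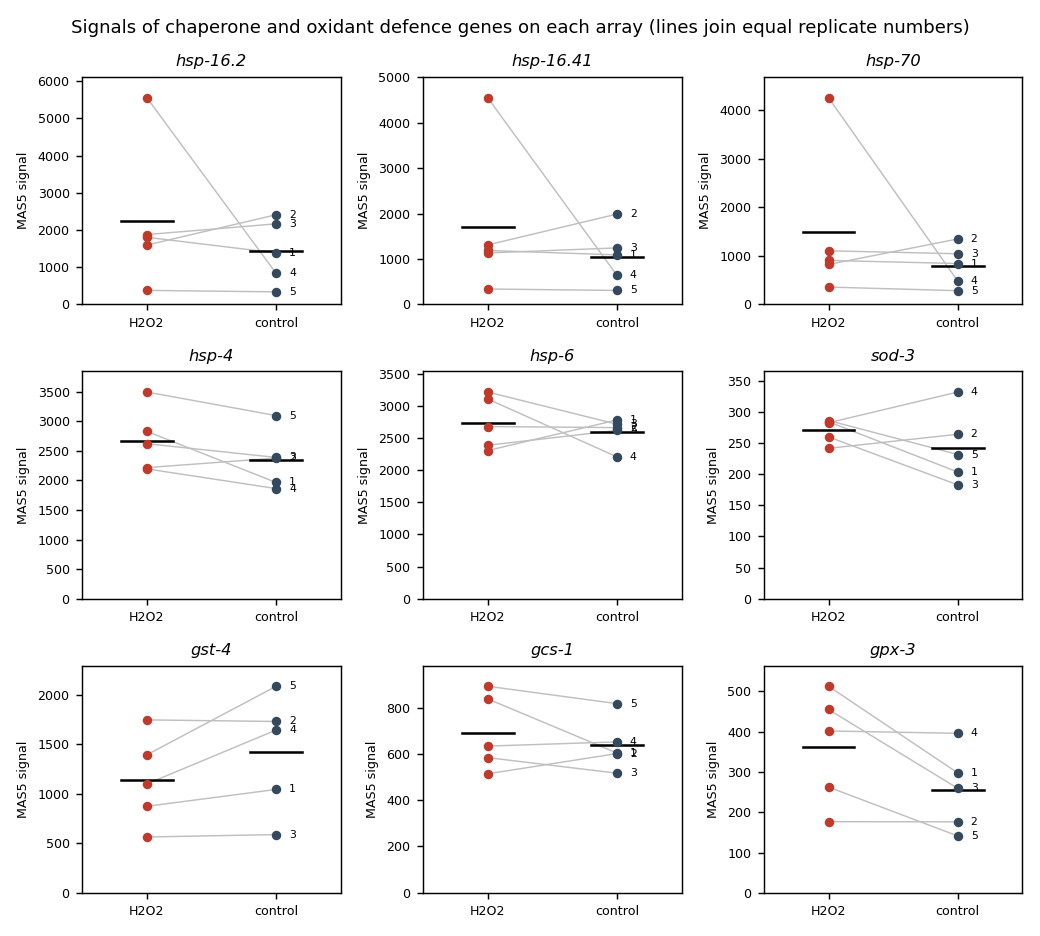
MAS5 signals (y axis, linear from 0) of 9 chaperone and oxidant defence genes on the 5 H2O2 arrays (left, red) and the 5 control arrays (right, dark), with a bar at each mean and grey lines joining equal replicate numbers. In hsp-16.2, hsp-16.41 and hsp-70, H2O2 array 4 sits far above the other 9 arrays, and in sod-3 the groups overlap through control arrays 2 and 4.

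Of the other tissue lists, those of pharynx, cuticle and neurons had the highest medians, while embryonic genes had a median of 0.012 with 12 of 22 higher. Pharyngeal genes, of the feeding organ, were higher in 16 of 18 (median 0.24), and 6 had an unadjusted paired p under 0.05 with a higher mean, 33.3% against 4.67% of all genes, among them pqn-74 (0.58) and the myosin gene myo-1 (0.33). The count was 0 of 18 without pair 1, 1 without pair 5, 3 without pair 3 and 1 after median centring. The pair medians were 0.56, 0.046, 0.21, 0.11 and 0.52, largest in numbers 1 and 5, as they were for muscle. Cuticle collagens were lower in 35 of 147 and higher in the others (median 0.22), and 28 (19%) had such a p with a higher mean, led by dpy-4 (0.32 ± 0.0711, paired SE) and col-93 (0.34 ± 0.0803, paired SE), with 18 to 29 as 1 pair was left out at a time and 10 after median centring. Their pair medians, 0.077, -0.019, 0.31, 0.47 and 0.32, followed another order, with numbers 3 to 5 high and number 2 below 0. FMRFamide-like peptide genes were higher in 21 of 25 (median 0.20), with flp-17 at 0.44. Other neuropeptide genes were higher in 44 of 58 (0.12), among them nlp-11 (0.50) and nlp-9 (0.42). Synaptic genes were higher in 34 of 47 (0.14), with the proprotein convertase gene egl-3 at 0.39 and sng-1 at 0.92. In pair 2 the medians of these 3 neuronal lists were -0.20, -0.20 and -0.32.

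Insulin-like peptide genes were higher in 16 of 24 (median 0.18), and 4 (16.7%) had an unadjusted paired p under 0.05 with a higher mean: ins-23 (0.68), ins-4 (0.57), ins-6 (0.34) and ins-1 (0.59), each higher in 5 of 5 pairs. The share over all genes was 4.67%, and the count was 1 of 24 without pair 4 (4.17%, median 0.036), 2 without pair 5 and 2 after quantile normalization or median centring. The gene ins-2 had -0.75 but was lower in only 3 of 5 pairs. Intestinal genes were higher in 15 of 19 (median 0.12), with opposite signs among the cathepsin B-like protease genes cpr-5 (0.63) and cpr-3 (-0.39). C-type lectins, secreted sugar-binding proteins, were higher in 143 of 220 (median 0.13). The members with the smallest paired p, clec-120 and clec-236, had low signals, with 30.2 ± 7.98 in H2O2 and 10.4 ± 4.19 in control (SD, n = 5 each) for clec-120 and 23.4 ± 8.22 in H2O2 and 5.84 ± 4.49 in control (SD, n = 5 each) for clec-236. Only 66 of the 220 lectins reached the 40th percentile of signal, and probe sets below it had a median log2 fold change of 0.14, against -0.0013 at or above it.

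Cytosolic ribosomal protein genes were higher in 74 of 75 (median 0.16), and 38 (50.7%, against 4.67% of all genes) had an unadjusted paired p under 0.05 with a higher mean, led by rps-26 (0.25 ± 0.0684, paired SE) and rpl-21 (0.27 ± 0.077, paired SE). After quantile normalization the median was 0.0045, 43 of 75 were higher and 1 had such a p. After median centring 0 had such a p, while 72 of 75 were higher with a median of 0.085, against -0.053 over all genes. With 1 pair left out at a time 12 to 48 had such a p. For body wall muscle quantile normalization left a median of 0.31 and 20 of 35 with such a p, and median centring left 0.25 and 15 of 35. Mitochondrial ribosomal genes (0.011), proteasome subunits (0.011), respiratory chain genes (0.042) and translation factors (-0.0054) had medians near that of all genes.

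Sperm transcripts differed in both directions within pairs. Their pair medians were -0.40, -0.87, 0.14, 1.37 and 0.15, and the mean log2 signal of the 73 genes ran from 5.39 to 6.85 on the H2O2 arrays and 5.33 to 7.09 on the control arrays. Of the oocyte and eggshell genes, 22 of 24 had a higher mean (median 0.085), with puf-5 at 0.27 and perm-4 at 0.14. Yolk genes were higher in 5 of 5 (median 0.11), with vit-6 at 0.21, vit-5 at 0.15 and vit-2 at 0.069. After quantile normalization their median was -0.031, and vit-2, vit-5 and perm-4 were below 0. The body wall muscle mean ran from 9.66 to 10.53 on the H2O2 arrays and 9.38 to 10.13 on the control arrays. The part of sperm content, of the other tissue markers and of array number in the muscle difference was not tested. Without pair 4, 18 of 35 muscle genes had an unadjusted paired p under 0.05 with a higher mean, and without pair 2, 22 did. These counts do not test the part of sperm content, since leaving out a pair also leaves out everything else that differed in it.

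**Figure D5:**
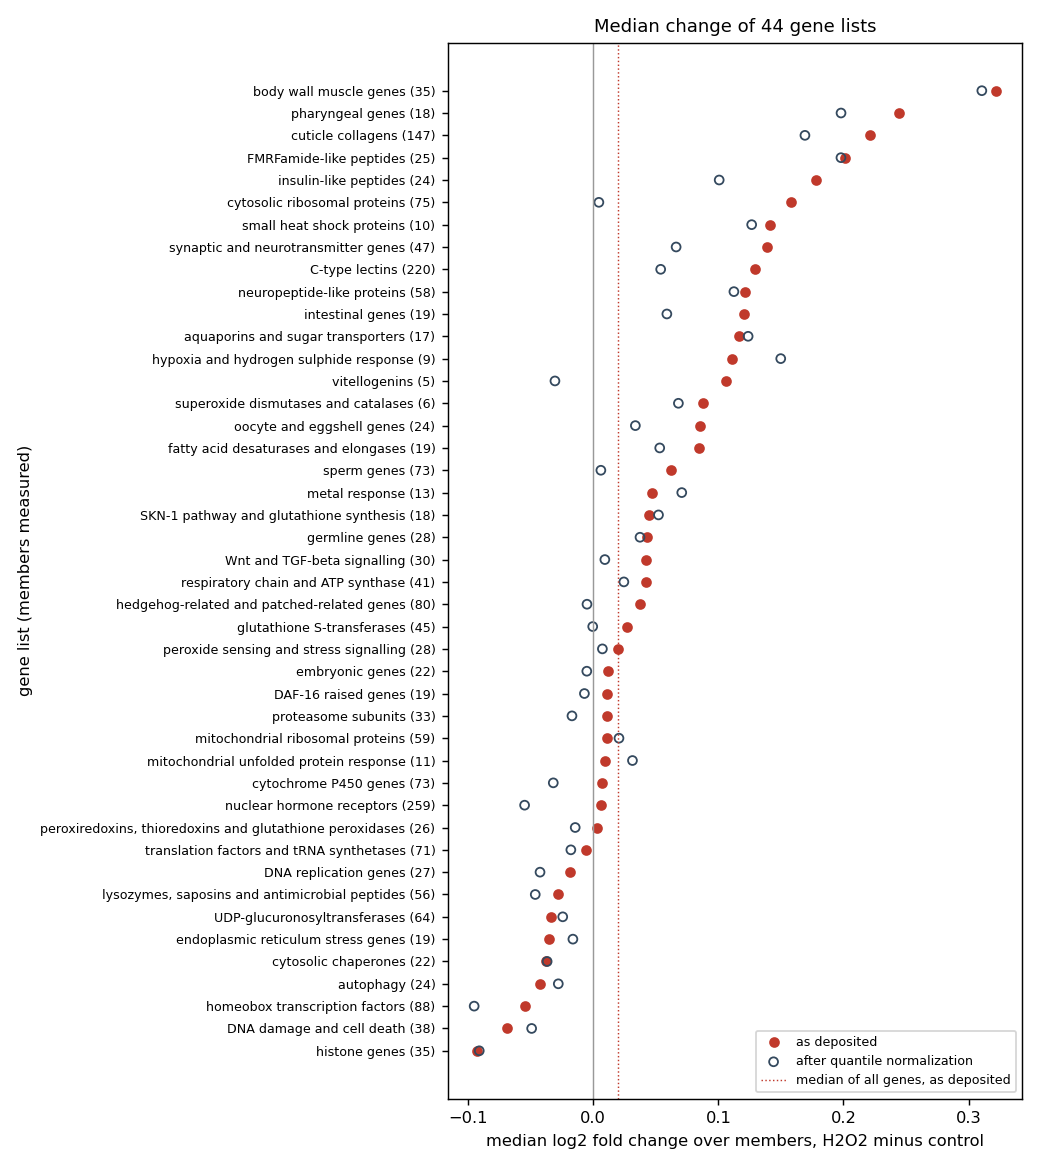
Median log2 fold change (H2O2 minus control, x axis) of each of 44 gene lists, with the number of measured members in brackets, as deposited (filled) and after quantile normalization (open); the dotted line is the median of all genes, 0.02. Body wall muscle stays at the top on both scales (0.32 and 0.31), while the ribosomal list moves to 0.0045 and histones lie at -0.093 and -0.091.

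The series holds 1 further contrast with and without H2O2, TRF+H2O2+TRF against TRF, which shares no array with the comparison above, although it also differs in TRF after the exposure. There, too, 0 of 22548 probe sets passed in limma (smallest adjusted p 0.465), with 254 higher and 319 lower in TRF+H2O2+TRF at an unadjusted p under 0.05. These arrays also resembled each other by number, with same-number correlations of 0.353 to 0.678 over the 13529 brighter probe sets, and the values above leave the number out. With the replicate block 0 passed as well (smallest adjusted p 0.0763), with 600 higher and 710 lower at an unadjusted p under 0.05. Body wall muscle genes were higher in TRF+H2O2+TRF in 28 of 35 (median 0.20), where 45.9% of all genes were. Pharyngeal genes were higher in 15 of 18 (median 0.20) and histone genes in 2 of 35 (median -0.095). Intestinal genes were higher in 18 of 19 (median 0.085), and lysozymes and antimicrobial peptides had a median of -0.11. Oocyte and eggshell genes were higher in only 8 of 24 (median -0.034). Cuticle collagens (0.0041) and ribosomal protein genes (-0.0057) had medians near 0. The log2 differences between TRF+H2O2+TRF and TRF were 0.56 for mup-2, 0.50 for tnt-2, 0.28 for unc-27, 0.74 for C29F5.1, 0.45 for oig-2, -0.84 for tab-1, -0.66 for far-3 and -0.45 for swt-6, all of the same sign as in worms without TRF. They were -0.093 for unc-129, -0.21 for gst-4 and -0.16 for hsp-16.2. Of the 16 genes named above without overlap by unpaired p, 3 had the opposite sign, F42A10.7 (-0.94), H20E11.3 (0.016) and soap-1 (0.21). The difference between the 2 contrasts, tested as an interaction over all 18 arrays in limma without the replicate number, passed for 0 of 22548 probe sets (525 with an unadjusted p under 0.05), and F42A10.7 had an unadjusted p of 0.00221 and an adjusted p of 1.0. With each numbered pair as a block the interaction again passed for 0 (1200 with an unadjusted p under 0.05), and F42A10.7 had an unadjusted p of 0.000305 and an adjusted p of 0.863. Across the 13529 probe sets at or above the 40th percentile, the log2 fold changes of the 2 contrasts had a Pearson correlation of 0.146, across genes that are not independent of each other.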

How the data were processed

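The data are MAS5 signal intensities, one array per sample; per the submitters' processing notes the authors used MAS5 and Affymetrix Expression Console, with versions not given in the sources used here, and deposited the intensities without log transformation. MAS5 scales each array as a whole and does not match the distributions of arrays, and it leaves low signals noisy. Of 22625 probe sets, 77 Affymetrix controls were left out, and log2(intensity + 1) of the other 22548 was tested with limma 3.58.1 in R 4.3.3 (lmFit, eBayes with a variance trend, two-sided, Benjamini-Hochberg adjustment over all probe sets, threshold 0.05). The unpaired fit held 5 H2O2 and 5 control arrays, and the paired fit added the replicate number as a block. Fold changes are on this log2 scale and understate changes of low signals. The fits were tested on simulated arrays with the observed means and spread. Of 100 changes of 2-fold, 42 passed in the unpaired fit and 43 in the paired fit. Of 100 changes of 4-fold, 92 and 93 did, with 1 and 6 false calls. Smaller changes were not simulated. With that set share, the counts do not compare the power of the unpaired and paired fits on these arrays. Arrays carry no read depth, and their number limits the precision.

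The check of the numbers was first made over all 22548 probe sets, where the same-number correlation was 0.0657 to 0.292 and the best match was the same number for 4 of 5 H2O2 arrays, and then over the 13529 probe sets at or above the 40th percentile. No label says what a number marks. Probe sets were named from GEO's platform annotation: 20766 had 1 symbol, 887 several and 895 none here, and 20701 symbols were matched through Entrez IDs to RefSeq WBcel235. Each gene stands by its brightest probe set with 1 symbol.

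Members and gene lists were chosen with earlier results of these data known. Named were the 8 genes in each direction with the smallest unpaired p among those without overlap, the 10 in each direction with the smallest paired p and the same sign in 5 of 5 pairs (all at or above the 40th percentile), the 2 members of each described list with the smallest paired p, and a set of oxidant and chaperone genes whatever their values. The remaining muscle, homeobox, histone, insulin-like and other list members named, and the muscle roles, were chosen after their values were seen. Alternatives were a signal filter, quantile normalization, median centring, a pseudocount of 16, no variance trend, array weights, a random block, the methods' t-test and arrays left out. Those on counts of list members, the block with the filter, and the block in the TRF contrast and the interaction were added after the data were seen.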

Additional observations from a re-analysis of the deposited data

Results flagged for a closer look

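In 406 groups of 5 arrays (the genes named and the mean log2 signals of the lists), 18 held an array far from the other 4 by Dixon's ratio. Chance gives about 1 in 20, so the count is no higher than chance gives. The groups are not independent, since named genes are also members of lists. Control array 5 accounted for 11 of the 18. Its signal was 325 for cex-1 (583 to 649 on the other control arrays), 176 for F42A10.7 (304 to 345), 353 for swt-3 (174 to 212), 2084 for sdha-2 (1221 to 1397) and 111 for unc-98 (237 to 304). Its mean log2 signal was 8.56 for peroxiredoxins and related genes (8.74 to 8.80), 9.24 for small heat shock genes (10.01 to 10.27), 7.21 for neuropeptide-like genes (7.55 to 7.68) and 8.24 for lysozymes and antimicrobial peptides (8.43 to 8.50), all below the others. It was above them for oocyte and eggshell genes, at 12.54 (12.15 to 12.25), and for DNA replication genes, at 11.08 (10.63 to 10.75).

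Other arrays apart were control array 2 for tab-1 (359, against 152 to 194 on the others) and ceh-43 (1541, against 1147 to 1237), control array 4 for hsp-6 (2209, against 2622 to 2784) and control array 1 for Wnt and TGF-beta genes (mean log2 signal 8.07, against 7.79 to 7.85). Among H2O2 arrays, array 5 stood apart for hil-3 (2068, against 2718 to 2976), array 2 for cyp-35B2 (22, against 54.9 to 67.7) and array 4 for pat-3 (3661, against 2562 to 2839). With each array left out in turn, the log2 fold change of cex-1 ran from 0.67 to 0.96, that of tab-1 from -1.04 to -0.73, that of swt-3 from -0.92 to -0.67 and that of ceh-43 from -0.69 to -0.45.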

How the results depend on the processing

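In limma, 0 probe sets had an adjusted p under 0.05 in any of 22 alternatives to the unpaired fit and 12 to the paired fit. The smallest adjusted p was 0.0962 to 1.0 for the first and 0.105 to 0.771 for the second. The 22 include fits with the replicate number as a block, among them the random block at 0.0962. Without a block the lowest was 0.301, without H2O2 array 2. The 12 hold the fit without pair 5 more than once. The methods' t-test, counted in the 22, held 837 at an unadjusted p under 0.05 and 0 after adjustment. The unpaired count of 710 at an unadjusted p under 0.05 was 320 with the 40th percentile filter and 1673 with the number as a random block. With the replicate block it was 1710, with the block and quantile normalization 1560, and with the block and the filter 1287. With 1 array left out it ran from 654 to 910, and the paired count of 1710 ran from 1204 to 1878 with 1 pair left out. The split of higher against lower was 350 to 352 with median centring and 367 to 350 with quantile normalization, against 474 to 236 as deposited. In pairs it was 614 to 980 and 795 to 765, against 1050 to 660.

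Of 159 genes followed, 139 kept their direction in every alternative. Quantile normalization gave -0.031 for vit-5, -0.017 for perm-4, -0.022 for prdx-2, -0.0079 for prdx-3, -0.041 for vit-2 and 0.00087 for pat-4. Median centring gave -0.033 for sod-2, -0.068 for prdx-3, -0.0039 for hsp-6 and -0.0039 for vit-2, and leaving out both arrays numbered 5 gave -0.00052 for vit-2. With 1 array left out, signs changed within -0.026 to 0.097 for sod-2, -0.062 to 0.22 for sod-4, -0.22 to 0.0046 for ctl-2, -0.083 to 0.061 for prdx-3, -0.0040 to 0.15 for daf-16, -0.056 to 0.27 for hsf-1 and -0.0026 to 0.93 for hsp-16.41. For muscle genes they did so within -0.14 to 0.58 for tnt-3, -0.086 to 0.048 for unc-60, -0.47 to 0.10 for unc-22, -0.070 to 0.39 for deb-1, -0.027 to 0.65 for unc-52, -0.30 to 0.21 for pat-4, -0.16 to 0.014 for pat-6 and -0.068 to 0.31 for unc-112. The causes were not tested.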

Other observations

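The cytochrome P450 genes cyp-35B2 and cyp-35A3 had log2 fold changes of 1.04 and 0.88, with means of 68.2 ± 24.3 in H2O2 and 35.9 ± 11 in control (SD, n = 5 each) for cyp-35A3. The desaturase genes fat-5 and fat-7, which make monounsaturated fatty acids, had -0.31 and -0.36, although 16 of the 19 desaturase and elongase genes had a higher mean. The sperm genes spe-21 and spe-11 had opposite signs, 1.07 and -1.34. All of these had an adjusted paired p over 0.5 in limma.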
